A study of Pan troglodytes with 6 samples.

Results

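The genes described here encode the adhesion G protein-coupled receptors and the receptors that still carry an orphan number (GPR, GPRC), with a few proteins that share the GPR name. They were taken as every array feature whose annotation gave 1 gene symbol beginning with GPR and a digit, with GPRC or with ADGR. The rule found 76 features, and of the 2 features of ADGRF1 the one with the higher mean over the 6 arrays was kept, which left 75 of the 12584 named genes. Of these, 23 are adhesion receptors, 38 are class A receptors and 7 are class C receptors. Another 6 are GPR-named membrane proteins that lie inside the cell or are only distantly related to G protein-coupled receptors, and 1, GPR15LG, is a secreted ligand that matched by name alone. A further 21 features named a gene of this kind together with another gene and were not used for it.

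The series measured total RNA of chimpanzee (Pan troglodytes) cerebellum, 3 samples, and chimpanzee liver, 3 samples, on an Affymetrix exon array designed on the human genome. By the labels, replicate 1 of either tissue came from a 27-year-old female, replicate 2 from a 37-year-old male and replicate 3 from a 30-year-old male. The labels call them biological replicates and give no treatment, and they do not state that a number marks 1 animal in both tissues. All values are the authors' deposited intensities, and all differences are cerebellum minus liver on the scale of log2(intensity + 16.8), where 16.8 is the 10th percentile of all values. Values below 0 entered that scale as 0, and differences of genes near that value are understated by it.

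G protein-coupled receptors cross the membrane 7 times and pass a signal to heterotrimeric G proteins inside the cell. Adhesion receptors carry a long extracellular part that binds matrix proteins or proteins of a neighbouring cell, and most of them cut themselves near the membrane, so that a short tethered peptide can activate the receptor. Orphan receptors are those for which no ligand, or no generally accepted one, is known. In the brain several members of both kinds sit at synapses or on glia, and in the liver members are known from sinusoidal endothelium and from the resident leukocytes.

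Over all 15143 features, Pearson's r between arrays was 0.947 to 0.977 within cerebellum, 0.906 to 0.950 within liver and 0.445 to 0.507 across the tissues. The tissue labels went with their markers. All 9 measured granule cell markers and all 9 Purkinje cell markers were higher in cerebellum, and all 9 hepatocyte markers were higher in liver. Liver replicate 3 differed from the other livers in its summed markers. It was the lowest for the 9 hepatocyte markers, which summed to 31105, 30380 and 25603 in liver replicates 1, 2 and 3. It was the highest for the macrophage and the fibroblast lists. The summed intensity of 11 Kupffer cell and macrophage markers was 250.04, 503 and 253 in cerebellum replicates 1, 2 and 3 and 5176, 5104 and 8879 in liver replicates 1, 2 and 3, an order kept for all values below. That of 9 markers of stellate cells, fibroblasts and smooth muscle was 580.3, 1302 and 544 in cerebellum and 1925, 1659.6 and 4283 in liver. In cerebellum, 6 oligodendrocyte markers summed to 6053, 1961 and 2542, with replicate 1 the highest, and 8 markers of astrocytes and Bergmann glia summed to 5187, 8052 and 6158, with replicate 2 the highest.

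Of the 75 genes, 22 passed toward cerebellum and 19 toward liver (limma, adjusted p under 0.05 over all features), and 34 did not pass. Among all 15143 features 26.7% were higher in cerebellum and 23.9% in liver, 50.6% together. The 41 called members are 54.7% of 75, a share near that background. The median log2 difference of the members was 0.06, against 0.04 over all features. With a difference of at least 2-fold as well, 17 members were higher in cerebellum and 12 in liver, against 17.2% and 15.8% of all features. The 3 cerebellum values lay above the 3 liver values for 25 members and below them for 21, against 31% and 28.5% of all features, 59.4% together. These counts hide large single differences, from 5.22 for ADGRB3 to -4.21 for ADGRG6. In whole tissue, fewer cells of a type and less RNA per cell cannot be told apart in any of these values.

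**Figure D1:**
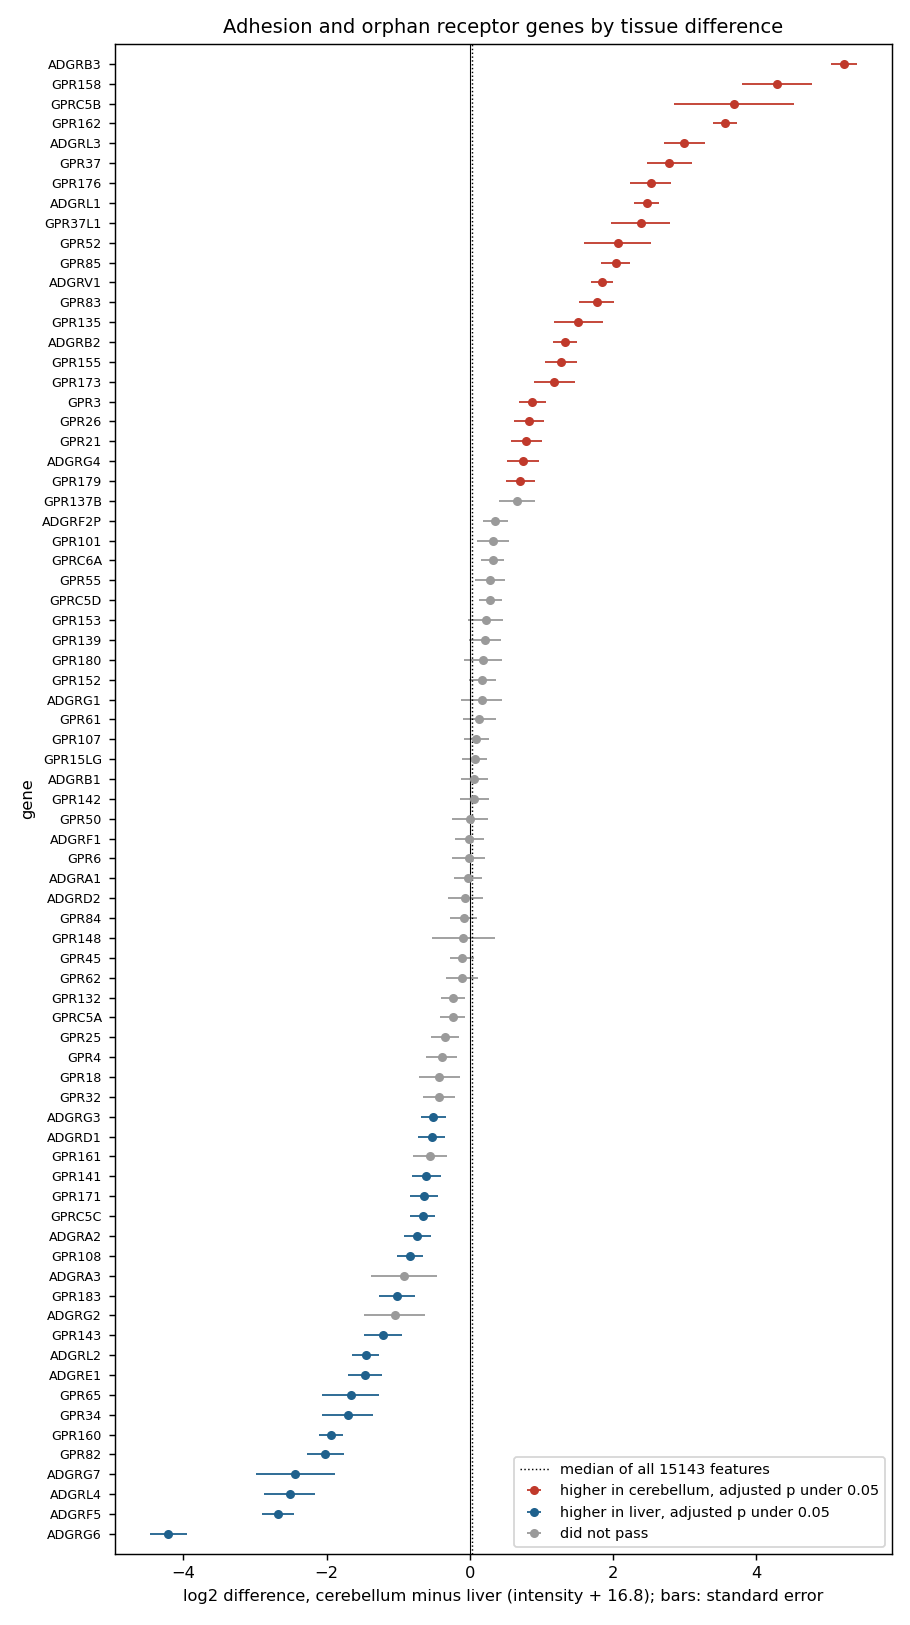
Each point is 1 of the 75 genes, placed by its log2 difference (cerebellum minus liver) with its standard error as a bar, and coloured by whether it passed the limma test and in which direction. ADGRB3, GPR158 and GPRC5B stand at the cerebellum end and ADGRG6 at the liver end, and the 34 grey genes that did not pass lie between -1.05 and 0.66.

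In 3 of the 75 genes the mean lay under the pseudocount of 16.8 in both tissues. Of the 41 calls, the 10 with the smallest differences were lost under 1 or more alternatives other than a stricter test against a 2-fold difference. They were ADGRA2, ADGRD1, ADGRG3, GPR141, GPR171 and GPRC5C toward liver and ADGRG4, GPR179, GPR21 and GPR26 toward cerebellum, with log2 differences from -0.74 to 0.82. The other 31 were called under every one of those alternatives in which they were tested. Among these alternatives, repeated quantile normalization and centring on the median could change no call, since all arrays hold the same sorted values.

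The largest difference toward cerebellum belonged to an adhesion receptor of the brain angiogenesis inhibitor (BAI) subfamily. ADGRB3, which in mouse sits on Purkinje cell dendrites and takes part in climbing fibre synapses, had intensities of 1559, 1124 and 1276 in cerebellum and 20.8, 18.6 and 16.8 in liver. The cerebellum values were far above the liver values, which lay within a few units of the pseudocount (log2 difference 5.22, standard error 0.18, limma, adjusted p = 2.32e-07). The other 2 members of the subfamily did not share this size. ADGRB2 averaged 98.5 ± 5.29 in cerebellum against 29.3 ± 6.04 in liver (SD, n = 3 per tissue here and below), a log2 difference of 1.33 (limma, adjusted p = 2.58e-04). ADGRB1, which also binds phosphatidylserine on dying cells, averaged 118 ± 16.9 in cerebellum against 113 ± 19.9 in liver and did not pass, at 0.06 (limma, adjusted p = 0.806).

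Latrophilins, the adhesion receptors that bind teneurins and FLRT proteins on the opposite cell and include the receptor of the black widow toxin, parted between the tissues. ADGRL3 had 303, 409 and 348 in cerebellum and 24.2, 16.5 and 55.4 in liver (log2 difference 2.99, standard error 0.29, limma, adjusted p = 4.75e-05). The latrotoxin receptor ADGRL1 had 341, 333 and 326 in cerebellum and 36.8, 50.2 and 54.05 in liver (log2 difference 2.47, standard error 0.17, limma, adjusted p = 7.71e-06). Both were higher in cerebellum without overlap, and the 3 cerebellum values of ADGRL1 lay close together. ADGRL2 went the other way, at 176 ± 22.2 in cerebellum against 513 ± 72.2 in liver, a log2 difference of -1.46 (limma, adjusted p = 2.31e-04). ADGRL4, which lacks the lectin domain of the other latrophilins and is known from endothelium, had 19.8, 22.1 and 13.6 in cerebellum and 190.1, 98.2 and 323 in liver (log2 difference -2.52, standard error 0.36, limma, adjusted p = 4.61e-04). Of the 4 measured genes of the subfamily, 2 were thus higher in each tissue.

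ADGRV1, a very large receptor of sensory hair bundles and the gene of a form of Usher syndrome, was the only measured member of its subfamily. Its intensities were 74.4, 70.4 and 65.96 in cerebellum and 6.72, 8.81 and 6.89 in liver (log2 difference 1.84, standard error 0.16, limma, adjusted p = 2.26e-05). The liver values lay under the pseudocount on all 3 arrays.

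Toward liver the largest difference belonged to ADGRG6, an adhesion receptor known for its part in the myelination of peripheral nerves. ADGRG6 had 8.43, 7.07 and 8.798 in cerebellum and 679, 355 and 356 in liver (log2 difference -4.21, standard error 0.26, limma, adjusted p = 3.62e-06). Cerebellum lay under the pseudocount on all 3 arrays, and liver replicate 1 was the highest liver array. ADGRG7, of the same subfamily, had 3.83, 6.16 and 6.298 in cerebellum and 181, 191 and 25.1 in liver (log2 difference -2.44, standard error 0.55, limma, adjusted p = 0.00584). Liver replicate 3 was far lower than the other livers, and without it the log2 difference of ADGRG7 was -3.19 (limma, adjusted p = 5.52e-06). ADGRG3, known from neutrophils, averaged 4.62 ± 0.932 in cerebellum against 13.8 ± 4.02 in liver, a log2 difference of -0.51 (limma, adjusted p = 0.0370). This call did not hold when any cerebellum array, or liver replicate 2 or 3, was left out (adjusted p from 0.0680 to 0.113 in limma).

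ADGRG4 was the member of subfamily G that went toward cerebellum, with 51.9, 24.7 and 44.7 in cerebellum and 19.2, 17.3 and 13.6 in liver (log2 difference 0.75, standard error 0.22, limma, adjusted p = 0.0212). The groups did not overlap, but the call of ADGRG4 did not hold when cerebellum replicate 1 or 3, or liver replicate 2 or 3, was left out (limma, adjusted p from 0.0510 to 0.0848). ADGRG1, a receptor of cortical development that natural killer cells also carry, averaged 55.97 ± 28.7 in cerebellum against 45.9 ± 11.4 in liver and did not pass, at 0.16 (limma, adjusted p = 0.660). ADGRG2, known from the epididymis, did not pass either, with 5.12, 6.58 and 5.48 in cerebellum, 7.23, 27.2 and 78.1 in liver and a log2 difference of -1.05 (limma, adjusted p = 0.0704). Its value turned on single liver arrays, at -0.53 (limma, adjusted p = 0.133) without liver replicate 3 and -1.52 (limma, adjusted p = 0.00633) without liver replicate 1.

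ADGRF5, a receptor of endothelium and of the alveolar epithelium that controls surfactant, had 40.4, 64.96 and 32.9 in cerebellum and 430.2, 323 and 382 in liver (log2 difference -2.68, standard error 0.23, limma, adjusted p = 2.23e-05). It was higher on every liver array. The other measured genes of subfamily F did not pass. ADGRF1 had a log2 difference of -0.01, and the pseudogene ADGRF2P had one of 0.35. ADGRE1, the gene of the macrophage antigen F4/80 in mouse, had 16.3, 22.3 and 20.6 in cerebellum and 54.5, 92.8 and 113 in liver (log2 difference -1.46, standard error 0.24, limma, adjusted p = 0.00105).

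Subfamilies A and D held the remaining adhesion receptors. ADGRA2, which in brain endothelium acts with RECK as a coreceptor of WNT7, averaged 64.6 ± 5.53 in cerebellum against 120.1 ± 24.8 in liver, a log2 difference of -0.74 (limma, adjusted p = 0.0116) that did not pass with arrays aligned on general genes, at -0.55 (limma, adjusted p = 0.0771). Its relative ADGRA3 had 137, 128 and 161 in cerebellum and 653, 249 and 135 in liver, and its liver values spread over a wide range. The groups overlapped and the difference of ADGRA3 did not pass, at -0.92 (limma, adjusted p = 0.130), and it turned on single liver arrays: it was -0.34 (limma, adjusted p = 0.323) without liver replicate 1 and -1.41 (limma, adjusted p = 0.0141) without liver replicate 3. ADGRA1 had a difference of -0.02 and did not pass. ADGRD1 lay near the pseudocount, with 8.97, 15.2 and 11.01 in cerebellum and 17.1, 29.1 and 27.6 in liver (log2 difference -0.53, standard error 0.19, limma, adjusted p = 0.0454), and its call did not hold when cerebellum replicate 1 or 3 or liver replicate 2 or 3 was left out (limma, adjusted p from 0.0926 to 0.146). ADGRD2 did not pass, with a difference of -0.07. Over the 23 adhesion receptors, 6 passed toward cerebellum, 9 passed toward liver and 8 did not pass, with a median log2 difference of -0.07. The called share was 65.2%, against 50.6% of all features.

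**Figure D2:**
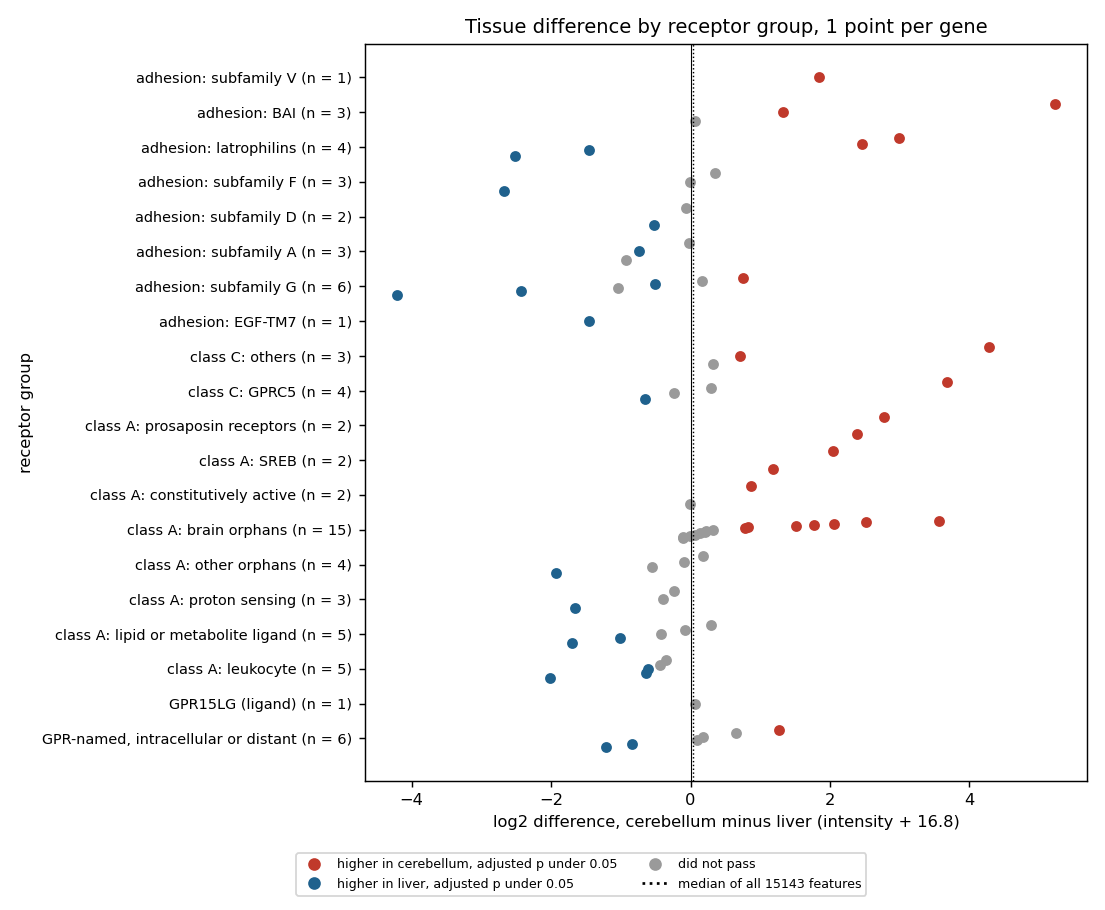
Each point is 1 gene, placed by its log2 difference (cerebellum minus liver) on the row of its receptor group, with the colour showing direction and whether it passed. The latrophilins fall 2 on each side, and 7 of 15 genes of the brain orphan group were called, all toward cerebellum. The called genes of the leukocyte (3 of 5), lipid (2 of 5) and proton-sensing (1 of 3) groups lie toward liver.

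Among the class C receptors, relatives of the metabotropic glutamate receptors, the differences toward cerebellum were the larger ones. GPR158, a receptor that binds the RGS7 and Gbeta5 complex and lies on neurons, had 1202, 1084 and 1576 in cerebellum and 127, 49.4 and 13.6 in liver (log2 difference 4.29, standard error 0.49, limma, adjusted p = 1.27e-04). GPRC5B, known from neural cells, had 1779, 2509 and 2072 in cerebellum and 55.1, 56.6 and 830.4 in liver (log2 difference 3.68, standard error 0.84, limma, adjusted p = 0.00617). Both genes had 1 high liver array, replicate 1 for GPR158 and replicate 3 for GPRC5B, and yet no liver value reached the lowest cerebellum value. The log2 difference of GPRC5B was 4.87 (limma, adjusted p = 2.11e-06) without liver replicate 3 and 3.09 (limma, adjusted p = 0.0233) without liver replicate 1. Liver replicate 3 was also the highest liver array for the summed fibroblast list, given above, and for the sum of 7 bile duct markers. The latter was 2308, 1144 and 1008 in cerebellum and 1682, 1521 and 2361 in liver. Of these 7 markers SPP1 was called toward cerebellum, EPCAM and ANXA4 toward liver, and 4 did not pass. The part of fibroblasts or bile duct cells in the value of GPRC5B was not tested.

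GPR179, the close relative of GPR158 that is needed in retinal bipolar cells, averaged 39.9 ± 8.4995 in cerebellum against 18.1 ± 5.99 in liver, a log2 difference of 0.71 (limma, adjusted p = 0.0191) that did not hold when cerebellum replicate 1 or 3 was left out (adjusted p from 0.0670 to 0.0824 in limma). GPRC6A, a receptor of amino acids and cations, averaged 20.4 ± 2.38 in cerebellum against 13.04 ± 2.64 in liver and did not pass, at 0.32 (limma, adjusted p = 0.138). GPRC5C was the class C gene called toward liver, at 131 ± 8.09 in cerebellum against 219 ± 33.6 in liver, a log2 difference of -0.66 (limma, adjusted p = 0.0127), and it did not pass with arrays aligned on general genes, at -0.47 (limma, adjusted p = 0.101). GPRC5A and GPRC5D had means close to the pseudocount in both tissues, with differences of -0.24 and 0.29 that did not pass. In all, 3 of 7 class C genes passed toward cerebellum and 1 toward liver, a called share of 57.1% against 50.6% of all features.

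Class A orphans known mainly from the brain, with GPR142, which is known from pancreatic islets, placed among them, formed the largest group of class A, 15 genes. Of these 7 were higher in cerebellum, 0 were higher in liver (limma, and also 0 at an unadjusted p under 0.05), and 8 did not pass, with a median of 0.33. Their called share was 46.7%, against 50.6% of all features (26.7% toward cerebellum and 23.9% toward liver). GPR162 had 298, 320.1 and 318 in cerebellum and 7.95, 10.8 and 14.98 in liver (log2 difference 3.56, standard error 0.17, limma, adjusted p = 9.04e-07). GPR176, a receptor of the circadian clock centre in mouse, had 151, 197 and 145 in cerebellum and 10.5, 6.47 and 31.4 in liver (log2 difference 2.52, standard error 0.28, limma, adjusted p = 1.17e-04). GPR162 lay under the pseudocount on all 3 liver arrays and GPR176 on 2 of them. GPR83 followed with 117 ± 41.5 in cerebellum against 21.6 ± 6.13 in liver and a log2 difference of 1.77 (limma, adjusted p = 4.13e-04).

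GPR52 and GPR135 were called in the same direction with a wide spread in cerebellum. GPR52, a receptor of striatal neurons that couples to Gs, had 956, 225 and 539 in cerebellum and 148, 100.05 and 76.6 in liver (log2 difference 2.06, standard error 0.46, limma, adjusted p = 0.00575). GPR135 had 244, 84.3 and 159 in cerebellum and 45.4, 29.3 and 52.4 in liver (log2 difference 1.52, standard error 0.34, limma, adjusted p = 0.00545). Cerebellum replicate 1 was the highest and replicate 2 the lowest for both genes, the reverse of the order of the Purkinje cell markers, whose 9 intensities summed to 7414, 11742 and 8687, and replicate 1 was also the highest for the oligodendrocyte markers. The part of cell composition in this spread was not tested.

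GPR26 and GPR21 had smaller differences, 0.82 (limma, adjusted p = 0.0116) and 0.79 (limma, adjusted p = 0.0164). The call of GPR26 was lost without cerebellum replicate 3 (limma, adjusted p = 0.0567), and that of GPR21 when cerebellum replicate 1 or 3, or liver replicate 2, was left out (limma, adjusted p from 0.0535 to 0.0657). The 8 genes of this group that did not pass were not all near the pseudocount. GPR62, known from oligodendrocytes, averaged 508 ± 92.8 in cerebellum against 552 ± 111 in liver, and GPR139, a receptor of the habenula that aromatic amino acids activate, averaged 317 ± 70.8 in cerebellum against 271 ± 61.3 in liver. Their log2 differences were -0.11 and 0.21, and those of the other 6, GPR45, GPR50, GPR61, GPR101, GPR142 and GPR153, lay between -0.11 and 0.33.

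GPR37 and its relative GPR37L1, both studied as receptors of prosaposin peptides and both known from glia, were higher in cerebellum. GPR37, known from oligodendrocytes, had 372, 153 and 232 in cerebellum and 22.6, 11.9 and 27.9 in liver (log2 difference 2.78, standard error 0.31, limma, adjusted p = 1.20e-04). GPR37L1, known from astrocytes and Bergmann glia, had 301, 851 and 599 in cerebellum and 156, 69.6 and 63.7 in liver (log2 difference 2.38, standard error 0.41, limma, adjusted p = 0.00141). In cerebellum the order of the arrays was opposite for the pair: GPR37 was highest on replicate 1 and lowest on replicate 2, the order of the summed oligodendrocyte markers. GPR37L1 was highest on replicate 2 and lowest on replicate 1, the order of the summed astrocyte markers. These sums weigh bright genes most, and MBP alone had 4297, 966 and 1481 in cerebellum. OPALIN of the first list and ETNPPL of the second were called toward liver, at -0.61 and -1.05. Whether oligodendrocytes or astrocytes account for the spread of GPR37 or GPR37L1 was not tested.

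The measured SREB receptors, GPR85 and GPR173, belong to a family that is highly conserved in the vertebrate brain, and both were higher in cerebellum. GPR85 had 109, 156 and 102 in cerebellum and 14.1, 15.7 and 20.6 in liver (log2 difference 2.04, standard error 0.20, limma, adjusted p = 5.34e-05). GPR173 averaged 78.7 ± 13.1 in cerebellum against 27.3 ± 18.3 in liver, a log2 difference of 1.18 (limma, adjusted p = 0.00791). Of the receptors that raise cyclic AMP without a known ligand, GPR3 had 50.01, 67.995 and 70.9 in cerebellum and 27.2, 21.4 and 31.7 in liver (log2 difference 0.87, standard error 0.19, limma, adjusted p = 0.00470), while GPR6 averaged 88.99 ± 14.2 in cerebellum against 91.8 ± 27.8 in liver and did not pass, at -0.01 (limma, adjusted p = 0.966).

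**Figure D3:**
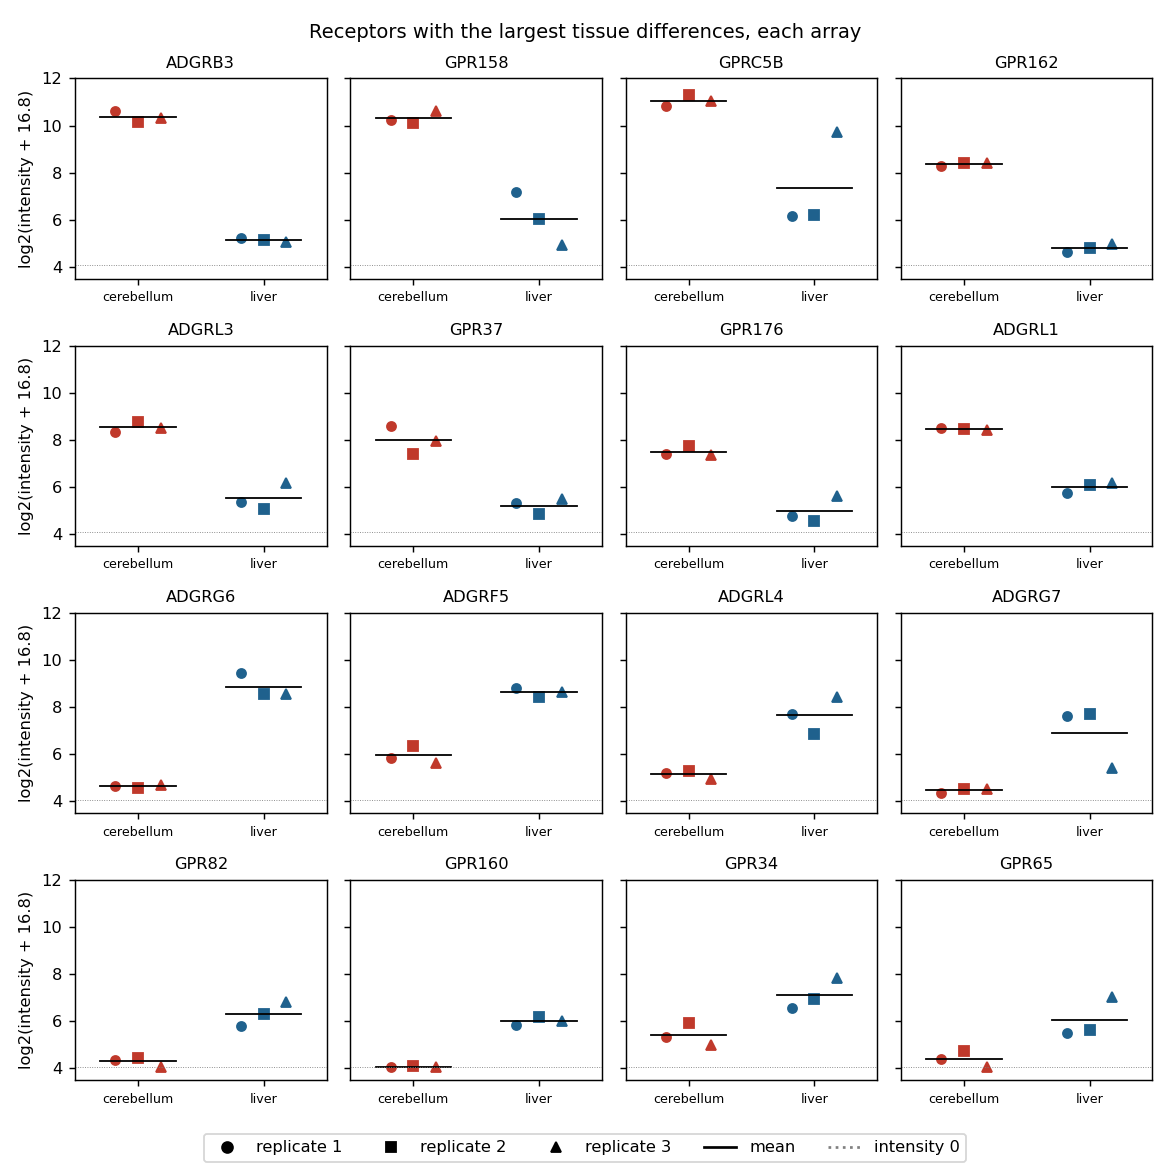
Each panel shows 1 of the 16 genes with the largest differences, 8 toward cerebellum (top rows) and 8 toward liver (bottom rows), as log2(intensity + 16.8) on each array, with symbols for the replicates, a bar at the mean and a dotted line at intensity 0. Only called genes whose tissues do not overlap were drawn, so the lack of overlap follows from the choice. Single liver arrays stand apart for GPRC5B (replicate 3, high) and ADGRG7 (replicate 3, low).

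Receptors known from leukocytes were higher in liver where they passed, and those taken from the lipid and proton groups were the called ones. By receptor group, 3 of 5 leukocyte, 2 of 5 lipid and 1 of 3 proton-sensing genes passed, all toward liver. Among all features 23.9% were higher in liver. GPR34, a receptor of lysophosphatidylserine on macrophages and microglia, had 23.6, 43.7 and 14.7 in cerebellum and 77.1, 106 and 213 in liver (log2 difference -1.70, standard error 0.36, limma, adjusted p = 0.00420). Its neighbour on the X chromosome, GPR82, had 3.82, 5.14 and -0.945 in cerebellum and 39.1, 63.1 and 95.2 in liver (log2 difference -2.02, standard error 0.26, limma, adjusted p = 2.97e-04). GPR65, a proton sensor of lymphocytes and macrophages, had 3.96, 9.67 and -1.57 in cerebellum and 27.8, 32.7 and 114 in liver (log2 difference -1.66, standard error 0.40, limma, adjusted p = 0.00801). For each of these 3 genes liver replicate 3 was the highest array, and the cerebellum values of GPR82 and GPR65 lay under the pseudocount.

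GPR183, the oxysterol receptor that guides B cells in lymphoid tissue, averaged 20.02 ± 5.49 in cerebellum against 59.3 ± 22.3 in liver, a log2 difference of -1.02 (limma, adjusted p = 0.00879). GPR171 and GPR141 had differences of -0.64 (limma, adjusted p = 0.0242) and -0.61 (limma, adjusted p = 0.0346), and neither call held when any cerebellum array, or liver replicate 2 or 3, was left out (limma, adjusted p from 0.0518 to 0.0704 for GPR171 and 0.0685 to 0.111 for GPR141). GPR25 and GPR32 did not pass, with differences of -0.35 and -0.43, and GPR32 stood at -0.26 (limma, adjusted p = 0.381) without liver replicate 2 and -0.65 (limma, adjusted p = 0.0169) without liver replicate 3. Among the other lipid and proton receptors GPR18, GPR55, GPR84, GPR4 and GPR132 did not pass, with differences from -0.42 to 0.29, and GPR18 stood at -0.25 (limma, adjusted p = 0.557) without cerebellum replicate 1 and -0.71 (limma, adjusted p = 0.0442) without cerebellum replicate 2.

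Among the 8 called genes known from leukocytes (ADGRE1, ADGRG3, GPR34, GPR82, GPR65, GPR183, GPR171 and GPR141, grouped after their values were seen), liver replicate 3 was the highest liver array for 6. It was the highest for 8 of all 19 members called toward liver and for 39.8% of all 3617 features called toward liver. Only called genes entered the 8, so their count does not describe leukocyte receptors in general. GPR25 and GPR32 of the leukocyte group did not pass and were left out. For both, liver replicate 3 was the lowest liver array, with 308, 315 and 254 for GPR25 and 61.5, 77.8 and 38.1 for GPR32. The 10 lymphocyte and plasma cell markers summed to 333, 232 and 303 in cerebellum and 1321, 1173 and 1632 in liver, and the macrophage sums are given above. All 11 macrophage markers and 8 of the 10 lymphocyte markers were called toward liver. In cerebellum the mean was under the pseudocount for CD163, MARCO, TIMD4, MSR1 and LYZ of the first list and for CD3E, CD2, GNLY, JCHAIN and PRF1 of the second. The part of leukocyte content in the 8 receptor differences was not tested.

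Called receptors known from endothelium, ADGRL4, ADGRF5 and ADGRA2, grouped after their values were seen, were higher in liver. Of a list of 11 endothelial markers 9 were higher in liver, and VWF and CLEC14A did not pass, at -0.68 and 0.37. The list summed to 467, 490.5 and 466 in cerebellum and 2438, 2769.9 and 3050.3 in liver, and STAB2 was its one marker with a mean under the pseudocount in cerebellum. The part of endothelial content in the 3 receptor differences was not tested.

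**Figure D4:**
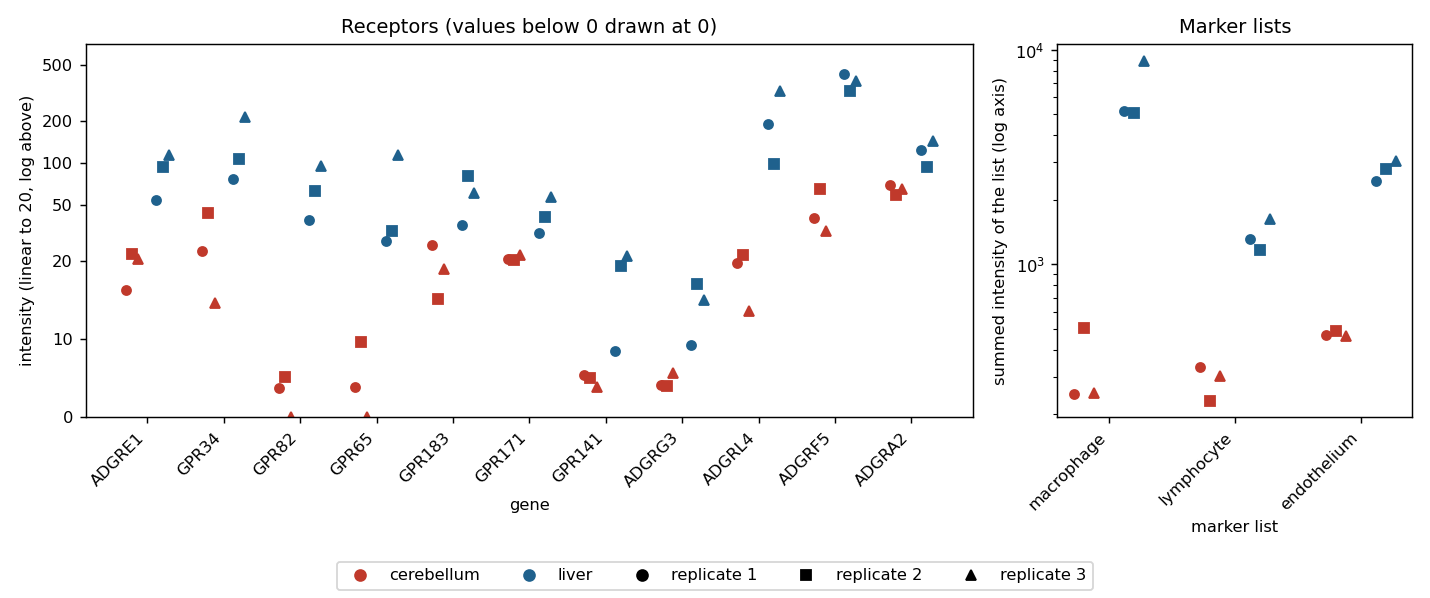
The left panel shows the intensity of 8 receptors known from leukocytes and 3 known from endothelium, all chosen among called genes. Each array is drawn, cerebellum left of liver, on an axis that is linear up to 20 and logarithmic above. The right panel shows the summed intensity of 3 marker lists on a log axis. Liver lies above cerebellum for every gene and list, and the triangle of liver replicate 3 is the highest liver point for 6 of the 8 leukocyte receptors.

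GPR160 was the called gene of the other class A orphans. It had -7.75, 0.201 and -4.203 in cerebellum and 40.7, 55.6 and 47.2 in liver (log2 difference -1.93, standard error 0.17, limma, adjusted p = 2.39e-05), so that the cerebellum values lay near or below 0 and the liver arrays lay close together. GPR161, which acts in primary cilia on hedgehog signalling, averaged 208 ± 43.5 in cerebellum against 317 ± 80.5 in liver and did not pass, at -0.56 (limma, adjusted p = 0.0816), with -0.39 (limma, adjusted p = 0.248) without liver replicate 2 and -0.74 (limma, adjusted p = 0.0288) without liver replicate 3. GPR148 and GPR152 did not pass, with differences of -0.09 and 0.17.

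Another 6 measured genes carry a GPR name but encode proteins of inner membranes or distant relatives of the receptors. GPR155, a lysosomal cholesterol sensor, was the one higher in cerebellum, with 421, 261 and 382 in cerebellum and 164, 122 and 122 in liver (log2 difference 1.27, standard error 0.22, limma, adjusted p = 0.00158). GPR108, of the Golgi apparatus, averaged 178 ± 33.8 in cerebellum against 328 ± 32.3 in liver, and GPR143, of the pigment granule membrane, averaged 27.7 ± 5.21 in cerebellum against 89.6 ± 33.5 in liver. Both were higher in liver, with log2 differences of -0.83 (limma, adjusted p = 0.00582) and -1.21 (limma, adjusted p = 0.00455). GPR137B, of the lysosome, did not pass at 0.66 (limma, adjusted p = 0.0602), stood at 0.46 (limma, adjusted p = 0.165) without liver replicate 1 and 0.93 (limma, adjusted p = 0.00437) without liver replicate 3, and was called with arrays aligned on general genes, at 0.84 (limma, adjusted p = 0.0185). GPR107 and GPR180 did not pass, with differences of 0.09 and 0.18. The ligand GPR15LG had 33.7, 22.5 and 32.3 in cerebellum and 27.2, 29.03 and 25.1 in liver and did not pass, at 0.07 (limma, adjusted p = 0.764).

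Binding partners of these receptors were followed in a list of 45 ligands and partners, of which 33 were measured. Of these, 12 passed toward cerebellum, 12 toward liver and 9 did not pass, with a median of 0.14. The called share was 72.7%, against 50.6% of all features. The largest differences were those of CBLN1, a synaptic organiser that granule cells secrete and a relative of the C1QL ligands, at 5.02 (limma, adjusted p = 3.41e-07), and of PROS1, the plasma anticoagulant protein S, at -5.56 (limma, adjusted p = 3.52e-07). Both are better known as ligands of other receptors, CBLN1 of the delta glutamate receptor and PROS1 of the TAM kinases. Receptors and partners were then set side by side in 19 pairs drawn up after the values were seen. C1QL1, the ligand of ADGRB3 at climbing fibre synapses in mouse, averaged 320.2 ± 30.01 in cerebellum against 559 ± 121 in liver, so that it was higher in liver (log2 difference -0.75, standard error 0.21, limma, adjusted p = 0.0152) where its receptor was close to the pseudocount. In mouse this ligand is made by neurons of the inferior olive, whose axons are the climbing fibres.

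For the latrophilins the partners TENM1, FLRT3 and FLRT1 were higher in cerebellum, by 3.67, 1.39 and 0.79. The first had 460.02, 509 and 455 in cerebellum and 14.5, 46.6 and 12.2 in liver (limma, adjusted p = 1.59e-05). ADGRL1 and ADGRL3 thus had the direction of these partners and ADGRL2 the opposite one. FLRT2 did not pass, at -0.05 (limma, adjusted p = 0.886).

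ADGRG6 has partners in the matrix and on neighbouring cells. The matrix proteins COL4A1 and LAMA2 were higher in liver, as the receptor was, at -1.84 (limma, adjusted p = 0.0228) and -0.68 (limma, adjusted p = 0.0301). PRNP, the prion protein, whose cleaved end activates ADGRG6 on Schwann cells in mouse, was higher in cerebellum instead, at 2600.4 ± 441 in cerebellum against 368 ± 185 in liver (log2 difference 2.89, standard error 0.37, limma, adjusted p = 2.61e-04). Both partners of ADGRG1 on the list, TGM2 and COL3A1, were higher in liver, with log2 differences of -4.19 (limma, adjusted p = 2.95e-06) and -2.56 (limma, adjusted p = 0.00119), while the receptor itself did not pass. GPC4, the glypican that binds GPR158, was higher in liver, at -1.80 (limma, adjusted p = 0.00471), and PSAP, the prosaposin gene, did not pass, at 0.50 (limma, adjusted p = 0.0968). RECK, the partner of ADGRA2, was higher in cerebellum, at 0.55 (limma, adjusted p = 0.0258).

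**Figure D5:**
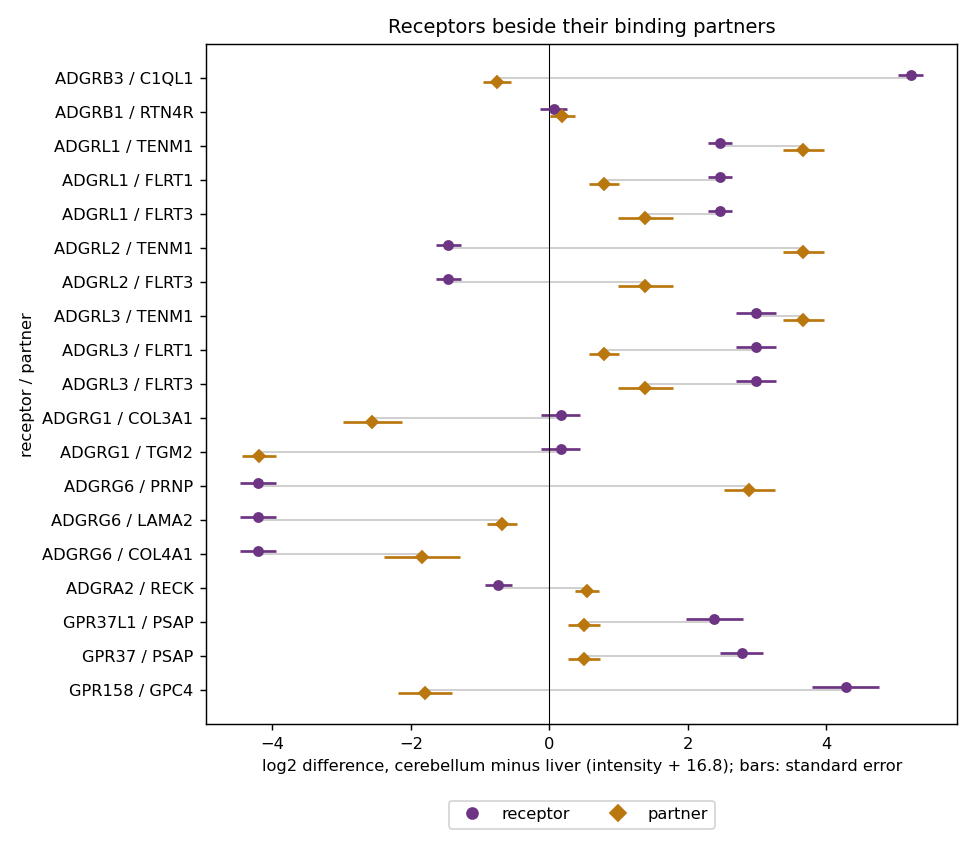
Each row sets a receptor (circle) beside a binding partner (diamond) by their log2 differences between cerebellum and liver, with standard errors as bars. The 2 genes of a pair lie far apart for ADGRB3 and C1QL1, for ADGRG6 and PRNP and for GPR158 and GPC4. They lie on the same side of 0 for ADGRL1 and ADGRL3 with the partners drawn, TENM1, FLRT1 and FLRT3. FLRT2, which did not pass at -0.05, was not among the pairs.

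Genes that act on receptors after activation were also examined. Of 13 measured receptor kinases and arrestins, 4 were higher in cerebellum, 0 were higher in liver (1 in limma at an unadjusted p under 0.05, ARRDC1, named after its value was seen) and 9 did not pass, with a median of 0.17. The called share was 30.8%, against 50.6% of all features. The 4 were the receptor kinases GRK4 and GRK3, at 3.01 (limma, adjusted p = 4.66e-06) and 2.22 (limma, adjusted p = 1.51e-04), the arrestin-related ARRDC3 at 1.41 and the beta-arrestin ARRB1 at 1.39. Of 7 listed genes of the R7 RGS complex, which GPR158 and GPR179 bind, 4 were measured. The genes of RGS7 and Gbeta5, named above for GPR158, were not among the measured ones. RGS9BP and RGS11 were higher in cerebellum, at 1.52 (limma, adjusted p = 0.00687) and 1.38 (limma, adjusted p = 0.00284), and RGS6 and RGS9 did not pass. Of the 3 CELSR genes, adhesion receptors of planar cell polarity with a cadherin name, CELSR3 and CELSR2 were higher in cerebellum, at 1.85 (limma, adjusted p = 3.68e-05) and 1.32 (limma, adjusted p = 2.20e-04). CELSR1 did not pass. The called share was 50% for the R7 list and 66.7% for the CELSR genes. Of 20 genes of receptor trafficking and scaffolding, 9 passed toward cerebellum and 6 toward liver, a called share of 75%. DLG4, the scaffold PSD-95 to which BAI receptors bind, was the largest toward cerebellum at 3.23 (limma, adjusted p = 3.15e-06), and REEP6, a membrane protein of the endoplasmic reticulum, the largest toward liver at -3.31 (limma, adjusted p = 7.20e-06).

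Members that lie side by side in the genome did not all go together. By the RefSeq gene table of the chimpanzee assembly NHGRI_mPanTro3-v2.0_pri, in which 73 of the 75 symbols were found, 8 pairs of members have no other protein-coding gene between them. In 2 of these pairs both genes were called, and both pairs went toward liver, ADGRL2 with ADGRL4 at -1.46 and -2.52 and GPR34 with GPR82 at -1.70 and -2.02. In the other 6 pairs at least 1 gene did not pass. The widest gap was between GPRC5B and GPR139, at 3.68 and 0.21, and the gap was also wide between ADGRF5 and ADGRF1, at -2.68 and -0.01.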

How the data were processed

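RNA of 3 cerebellum and 3 liver samples of chimpanzees was measured on human exon arrays. The authors deposited linear intensities of 15143 features for each array. The submitters' processing notes name GCOS, and the background correction and probe summary were not given in the sources used here. All 6 arrays hold the same sorted values, so the deposited intensities had been quantile normalized, and 93 values per array lay below 0. Human probes can mismatch chimpanzee transcripts, so no level of 1 gene was set against that of another. The summed marker lists do weigh each gene by its level, so that bright markers lead them. Depth has no meaning here, and the number of arrays limits the precision.

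Gene symbols came from the platform annotation, with 12685 features of 1 symbol, 1780 of several and 678 of none. Values below 0 were set to 0 and transformed as log2(intensity + 16.8). All features were fitted together with limma 3.58.1 in R 4.3.3 (lmFit, eBayes, two-sided, no block, no filter) and p-values were adjusted by Benjamini-Hochberg at 0.05. The fit was tested on simulated data first. With 3 arrays per tissue the smallest two-sided permutation p is 0.1, so none is given. P-values set the tissue difference against the spread of samples within the tissues, 3 per tissue, moderated over all features. Sex and age differ between those samples and were not in the fit.

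Genes given with every array were the 8 largest called differences without overlap in each direction, the largest of each receptor group, called genes opposite to their group, and the 3 with the largest SD (log2) in each tissue. Other members are given by difference, mean or range, and those shown by array outside this rule (ADGRG2, TENM1 and the like) were chosen after their values were seen. The members and lists were chosen with earlier results of these data known. Alternatives were a replicate block, pseudocounts at the 5th and 25th percentiles, a filter on dim features, 3 other scalings, a trended prior, a test against 2-fold and leaving out each array. The scalings were quantile normalization again, centring on the median and alignment on general genes. Only the last of them could change a call, since the arrays already hold the same sorted values. No sequences were printed because none were given.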

Additional observations from a re-analysis of the deposited data

How the results depend on the processing

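The count of members higher in cerebellum was 18 to 22 and that higher in liver 15 to 20 when 1 array was left out, against 22 and 19 in the reported fit. A test against a 2-fold difference (treat) left 12 members higher in cerebellum and 5 in liver, and 1295 and 1350 of all features, since it asks for a larger difference. Without dim features 9 members were higher in liver, with 44 of the 75 members tested, and all 24 calls among those 44 were kept. With arrays aligned on 115 general genes (respiratory chain, proteasome, ribosome) the median log2 difference of all features was 0.22 in place of 0.04. Then 63.9% of called members were higher in cerebellum, against 53.7% as reported, and the share among all called features moved alike, 62.4% against 52.8%, while 6 calls toward liver of members were lost and 1 toward cerebellum was gained. Pseudocounts of 10.2 and 38.3 changed 0 and 3 members' calls. No called member changed sign under any alternative run. Same-numbered samples share sex and age in the labels, which do not state that they are 1 animal. The numbers were therefore not taken as pairs. Deviations of same-numbered samples from the tissue means correlated at 0.11, 0.16 and -0.14 in replicates 1, 2 and 3. Unlike numbers correlated at -0.25 to 0.24, so with 3 arrays per tissue these correlations cannot decide whether the numbers are pairs. With the replicate block 22 members were higher in cerebellum and 17 in liver: ADGRD1, ADGRG3 and GPR141 were lost and ADGRG2 was gained, all of them calls toward liver. Signal near background limits what the dim members can show.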

Other observations

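The 21 features that name a receptor of these families together with another gene cannot be assigned to either gene. Counted with the 75 members, they raised the calls toward cerebellum to 27 and those toward liver to 22. The feature annotated to both TSPYL2 and GPR173 had a log2 difference of 3.53 (limma, adjusted p = 2.09e-05), against 1.18 for the feature of GPR173 alone. The feature annotated to both P3H3 and GPR162 had 1.32 (limma, adjusted p = 0.00118), against 3.56 for GPR162 alone. The feature annotated to both IQCK and GPRC5B had 0.29 (limma, adjusted p = 0.535), against 3.68 for GPRC5B alone. Toward liver, 1 of 2 features annotated to both GPR39 and LYPD1 had the largest difference, -2.27 (limma, adjusted p = 1.18e-05), and the other had -0.29 (limma, adjusted p = 0.187). A feature annotated to both ADGRE5 and ADGRE2, receptors of leukocytes, had -1.29 (limma, adjusted p = 0.00204).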
